A study of Homo sapiens with 32 samples.

Results

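N6-methyladenosine (m6A) regions that were found in both control peak lists of 2 colorectal cancer lines, LOVO and RKO, and in neither METTL3 knockdown list of these lines were examined. Same-strand peaks of the 2 control lists on chromosomes 1 to 22 and X were merged, which gave 49957 regions, and 21868 of them had a peak in both control lists. Of these shared regions, 3988 (18.2%) overlapped no knockdown peak of either line by 1 bp on the same strand and are called lost below. Another 9516 shared regions had a peak in all 4 lists and are called kept, 2009 were lost in LOVO only and 6355 in RKO only. The members were thus chosen by the presence and absence of called peaks in the 4 colorectal lists, and loss there is no finding and has no test.

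The peaks come from MeRIP-seq of chromatin-associated RNA, in which RNA fragments are enriched with an m6A antibody. LOVO and RKO are labelled as colon adenocarcinoma cells, and OVCAR8 and SKOV3 as ovarian cancer lines. Each line was studied as a control (shControl or Control, genotype WT in the labels) and with a short hairpin against METTL3 (shMETTL3, genotype METTL3 knockdown), with 2 MeRIP libraries per group and no other allele or agent named. For LOVO and RKO 1 peak list per group was used, so that these groups have no replicate, and for OVCAR8 and SKOV3 1 list per library, 8 in all. Nothing in the labels says whether the replicates were separate cultures, so p-values below measure the spread between these lists only.

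m6A is placed on nascent RNA by a complex whose catalytic subunit is METTL3 and whose partner METTL14 helps to bind RNA, mostly at adenosines in the DRACH sequence, of which GGAC is the most common core. In messenger RNA the mark is known to gather near stop codons and in long last exons. On chromatin-associated RNA it is also found in introns and in RNA of repeats such as LINE-1, where it marks RNA for nuclear readers such as YTHDC1.

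Several lists stood apart from their labels. The list labelled RKO knockdown had 45.1% of its peaks at an RKO control peak, where 73.1% of LOVO knockdown peaks lay at a LOVO control peak. Of 10 colorectal epithelial markers, 6 had a peak in LOVO control, 7 in LOVO knockdown, 3 in RKO control and 0 in RKO knockdown, where KRT8, KRT18 and CDX2 were at 0 peaks. The caller's background in reads, as estimated from the scores, was 1.15 times its control in the LOVO knockdown list and 0.483 times in the RKO knockdown list. The LOVO knockdown list alone lacked 5997 of the shared regions (27.4%), and the RKO knockdown list lacked 10343 (47.3%), so the RKO list removed more regions than the LOVO list. The part of depth and of list identity in this loss was not tested. METTL3 itself had 2 peaks in LOVO control, 2 in LOVO knockdown, 2 in RKO control and 3 in RKO knockdown, which says nothing of its RNA level. In the ovarian lists, 96.2% and 95.6% of the peaks of the 2 lists labelled OVCAR8 knockdown lay at a peak of the first SKOV3 control list, against 69.4% and 69.0% at the first OVCAR8 control list. The 2 lists labelled SKOV3 knockdown had 82.4% and 80.7% of their peaks at OVCAR8 control and 56.5% and 55.8% at SKOV3 control. The line named on the ovarian knockdown lists is thus at odds with their peaks, and ovarian results are given by list.

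Few lost regions lay at annotated gene starts, and sequences of some that did are shown here, since letters could be read only at annotated starts. RefSeq (GRCh38.p14) gives the 250 bases before and the 50 after a gene start, and 10 of 3988 lost regions (0.251%) overlapped such a window on its strand, against 445 of 9516 kept regions (4.68%). The lost regions covered 9 stretches before a start, of which 6 were at least 140 bases long. 4 of these 6 held GGAC, which is printed in capitals in the strand of the peak. The stretches belong to UGT8 (chr4:114598664-114598806, plus strand), the enzyme that makes galactosylceramide, to MYNN (chr3:169773206-169773395, plus strand), a zinc finger protein, to NUDT6 (chr4:122923077-122923218, minus strand), a nudix hydrolase whose gene lies antisense to FGF2, and to LOC124903554 (chr15:90598777-90599026, plus strand).
UGT8: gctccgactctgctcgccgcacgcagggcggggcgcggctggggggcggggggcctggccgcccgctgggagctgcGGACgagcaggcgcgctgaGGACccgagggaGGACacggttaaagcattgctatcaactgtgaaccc
MYNN: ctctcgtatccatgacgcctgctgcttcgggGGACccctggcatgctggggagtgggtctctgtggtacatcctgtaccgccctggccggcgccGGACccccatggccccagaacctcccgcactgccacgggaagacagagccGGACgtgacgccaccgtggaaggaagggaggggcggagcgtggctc
NUDT6: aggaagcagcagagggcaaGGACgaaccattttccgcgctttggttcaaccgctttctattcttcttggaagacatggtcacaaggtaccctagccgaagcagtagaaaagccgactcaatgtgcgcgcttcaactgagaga
LOC124903554: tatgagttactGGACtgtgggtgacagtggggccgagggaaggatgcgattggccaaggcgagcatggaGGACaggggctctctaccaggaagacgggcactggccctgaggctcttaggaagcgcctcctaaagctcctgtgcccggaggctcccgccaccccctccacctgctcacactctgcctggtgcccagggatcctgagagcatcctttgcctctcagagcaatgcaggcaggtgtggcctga
UGT8 and MYNN each held 3 copies of GGAC, LOC124903554 held 2 and NUDT6 held 1. The last base of DRACH is A, C or T. A G follows the NUDT6 copy, the first UGT8 copy and the last MYNN copy, so these are not full DRACH sequences. UGT8 had a control score of 6.92 in LOVO and 8.41 in RKO, and MYNN had 5.13 and 4.56. NUDT6 had scores of 5.33 and 4.71, and LOC124903554 had 5.37 and 5.80.

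One of the long stretches without GGAC, that of ARRDC1-AS1 (chr9:137619005-137619145, minus strand), is set beside that of ATOSA (chr15:52678758-52679007, minus strand), a kept region chosen for its high scores.
ARRDC1-AS1: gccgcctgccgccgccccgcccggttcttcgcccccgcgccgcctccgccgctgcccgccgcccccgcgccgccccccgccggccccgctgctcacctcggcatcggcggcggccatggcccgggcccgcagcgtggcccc
ATOSA: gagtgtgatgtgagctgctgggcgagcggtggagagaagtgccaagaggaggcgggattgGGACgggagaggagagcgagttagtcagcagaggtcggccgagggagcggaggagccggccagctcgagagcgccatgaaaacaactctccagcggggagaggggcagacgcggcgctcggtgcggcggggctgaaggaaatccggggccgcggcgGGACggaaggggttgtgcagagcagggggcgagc
ARRDC1-AS1 was lost from scores of 6.54 in LOVO and 6.29 in RKO, and the 141 bases shown hold no GGAC. ATOSA, with 2 copies of GGAC in 250 bases, had scores of 24.6 and 18.1 and kept a peak in both knockdown lists. A G follows both ATOSA copies, so neither is a full DRACH sequence, and the pair does not compare stretches with and without DRACH. Only GGAC and its reverse complement GTCC were searched. The search took the 250 bases before each start, whether or not a region covered them. Of all 34961 windows, 59.0% held GGAC there and 59.5% held GTCC. Among windows at lost regions 7 of 10 held GGAC and 30% held GTCC, and among 502 windows at kept regions 68.9% and 58.0% did. With 10 windows this is a description of letters near a start, and no match says nothing of a methylated site.

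Lost regions were weak in the control lists. Their median score was 5.05 in LOVO and 4.83 in RKO, against 8.09 and 7.08 in kept regions. In LOVO 21.4% of lost regions scored above the median of all shared regions, and in RKO 26.9%. When shared regions were placed in 10 classes of mean score rank, each 10 rank points wide, 441 of 1007 (43.8%) were lost in the weakest class and 9 of 1383 (0.651%) in the strongest. The share in all 4 lists ran the other way, from 12.7% to 86.4%. Loss was thus uneven over score, although the score did not enter the rule. Kept regions were therefore weighted in 10 by 10 cells of LOVO and RKO score rank to have the scores of lost regions. They are then called score-matched.

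**Figure D1:**
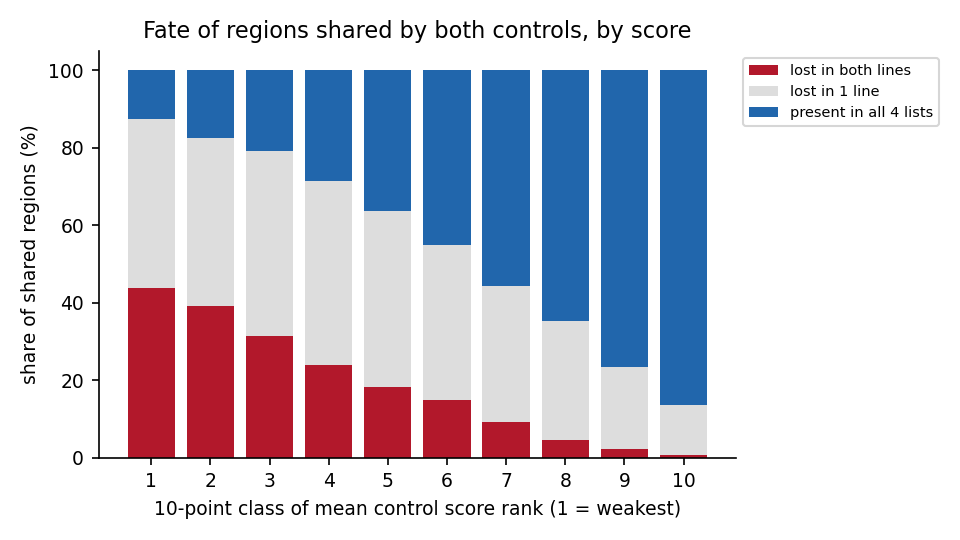
Share in percent of the regions of both control lists that were lost in both lines, lost in 1 line or present in all 4 lists (bar segments), by 10-point class of mean control score rank (x axis, 1 weakest). The lost share is 43.8% in class 1 and 0.651% in class 10.

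The strongest lost regions lay in FCHO2, MORC4, ZNF397 and IFI6. In FCHO2, which helps to start clathrin-coated pits, a region of 394 bp at chr5:72990433-72990826 on the plus strand had a score of 13.8 in LOVO and 13.8 in RKO, and lay 34589 bp from the start of the gene. In the gene of MORC4, a nuclear ATPase of the MORC family, a region of 548 bp at chrX:106942585-106943132 had scores of 16.6 and 11.2. Both lay far above the median of lost regions in each line. In ZNF397, a zinc finger protein, a region of 557 bp at chr18:35243496-35244052 had scores of 20.2 and 10.5, the higher being the highest LOVO score of any lost region. The nearest RKO knockdown peak lay 50 bp from the ZNF397 region and the nearest LOVO knockdown peak 245 bp from it, so that peaks of both knockdown lists stood beside it. In IFI6, an interferon-induced mitochondrial protein, a region of 373 bp at chr1:27668925-27669297 had scores of 13.5 and 12.2. Its nearest LOVO knockdown peak was 64796 bp away and its nearest RKO knockdown peak 2668 bp away. The next 6 regions by rank lay in TFDP2 (a partner of E2F), ATRX (a chromatin remodeller), SP100 with LOC101928816, a stretch between genes on chromosome 16, CTPS1 (CTP synthase) and MPC1 (a mitochondrial pyruvate carrier subunit). A LOVO knockdown peak lay 293 bp from the MORC4 region and 165 bp from the TFDP2 region. Their nearest RKO knockdown peaks were 122872 bp and 1200 bp away. For CTPS1, scored 11.7 and 11.3, the nearest LOVO knockdown peak was 149285 bp away and the nearest RKO knockdown peak 251816 bp away, and the gene had no other peak in either knockdown list. ATRX, by contrast, had 11 other peaks in LOVO knockdown and 8 in RKO knockdown. FCHO2, ZNF397, IFI6, CTPS1, MPC1, SP100 with LOC101928816 and the stretch on chromosome 16 had a peak in 0 of the 8 ovarian lists, and TFDP2 and ATRX in 1. The MORC4 region had one in both SKOV3 control lists, with folds of 4.32 and 4.03, and in both lists labelled SKOV3 knockdown, with folds of 4.99 and 5.08.

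Most lost regions had no knockdown peak within 1 kb. The median distance to the nearest same-strand peak was 9.64 kb in LOVO knockdown, 21.5 kb in RKO knockdown and 6.36 kb in either list. A peak of either list lay within 200 bp of 103 regions (2.58%) and within 1 kb of 814 (20.4%). For scale, the median distance from a lost region to the next same-strand shared region was 6.55 kb. The regions just inside the rule were in GOLM1 (9 bp from a knockdown peak), ZNF496 (19 bp), SRP72 (22 bp) and CFAP298-TCP10L (32 bp). The kept regions just outside it were in TRMT44 (least overlap 2 bp), SLC16A9 (10 bp), VAC14 (10 bp) and RPUSD3 (12 bp). Control scores overlapped between these groups, for example 10.4 and 3.92 in GOLM1 and 6.51 and 4.63 in TRMT44.

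The ovarian lists did not enter the rule and were used to look the regions up. Lost regions had a peak in 22.2% and 21.9% of cases in the OVCAR8 control lists (22.02% ± 0.213, SD, n = 2) and in 24.9% and 25.5% in the SKOV3 control lists (25.2% ± 0.408, SD, n = 2). In the lists labelled OVCAR8 knockdown the values were 6.54% and 7.12% (6.83% ± 0.408, SD, n = 2), and in those labelled SKOV3 knockdown 23.8% and 24.2% (24.0% ± 0.284, SD, n = 2). The OVCAR8-labelled knockdown pair was low and apart from the other 6 lists, which lay between 21.9% and 25.5%. Those lists held 15484 and 15744 peaks, and the other ovarian lists 26178 to 29102. Score-matched kept regions had a peak in 61.9% and 62.7% of cases in OVCAR8 control, 66.2% and 66.6% in SKOV3 control, 46.7% and 46.9% in the OVCAR8-labelled knockdown and 61.1% and 62.3% in the SKOV3-labelled knockdown. Lost regions were therefore seen less often in every ovarian list, with a difference of -41.2 to -37.3 percentage points, a gap far above the spread between the lists of a pair. The gap had the same direction on 23 of 23 chromosomes in each of the 8 lists. When region width was held alike as well as score, the difference was -33.0 to -28.1 points. Without score matching, regions lost in 1 line only lay between lost and kept regions in each list. Over the 8 lists they had a peak in 27.9% to 55.4% (LOVO only) and 20.4% to 47.1% (RKO only), against 60.1% to 77.3% of kept regions. Lost and kept regions were chosen by calls in the colorectal lists, and the part of that choice in the gap was not tested. Where a lost region did have an ovarian peak, the median fold enrichment was between 3.76 and 4.54 over the 8 lists, against 4.94 to 5.91 for score-matched kept regions. Fewer cells or less RNA of a gene and less m6A on it cannot be told apart from peaks alone.

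**Figure D2:**
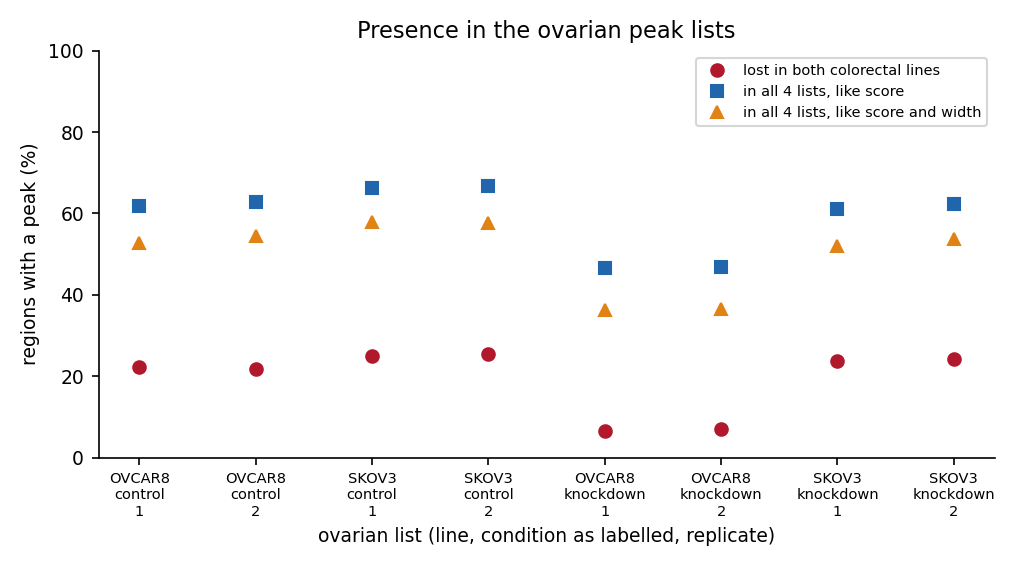
Percent of regions with a peak (y axis) in each of the 8 ovarian lists (x axis, line and condition as labelled), for lost regions (circles), score-matched kept regions (squares) and kept regions matched on score and width (triangles). Lost regions lie lowest in all 8 lists, at 6.54% to 25.5%.

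Whether the lost regions also went missing with METTL3 knockdown in the ovarian lines was tested over the 8 lists. The mean was 23.6% over the 4 control lists and 15.4% over the 4 knockdown lists, a difference of 8.19 percentage points that did not pass (two-sided exact permutation test over 70 arrangements, p = 0.286, adjusted p = 0.286 over 2 tests). It is the mean of 15.2 points within OVCAR8 as labelled and 1.19 within SKOV3. With equal numbers of peaks per ovarian list the difference was 2.23 points. If each control pair is set beside the knockdown pair whose peaks it shared most, OVCAR8 control minus the SKOV3-labelled knockdown gave -2.03 points and SKOV3 control minus the OVCAR8-labelled knockdown gave 18.4 points. The 4 control lists lay above the OVCAR8-labelled knockdown pair in every case and overlapped with the SKOV3-labelled pair. The gap to score-matched kept regions was -40.7 points in control and -38.8 in knockdown lists, a difference of -1.93 points (two-sided exact permutation test, p = 0.0857, adjusted p = 0.171). The smallest p that 70 arrangements allow is 0.0286. No larger drop of lost than of kept regions in the ovarian knockdown lists, in percentage points, was thus detected by this test. Lost regions started from a lower share, so a drop relative to the control share is another question and was not tested. From OVCAR8 control to the OVCAR8-labelled knockdown, lost regions went from 22.02% to 6.83% and score-matched kept regions from 62.3% to 46.8%. From SKOV3 control to the SKOV3-labelled knockdown, lost regions went from 25.2% to 24.05% and score-matched kept regions from 66.4% to 61.7%.

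In all, 2154 lost regions (54.0%) had a peak in 0 ovarian lists, against 18.8% of score-matched kept regions and 27.2% of all shared regions. At the other end 132 (3.31%) had a peak in all 8, against 36.1% and 27.6%. The strongest of those 132 lay in TPTE2P5, a pseudogene, in EFCAB13, in GPR84-AS1 with ITGA5, the integrin alpha 5 gene, and in EPHA2, a receptor tyrosine kinase. The region in GPR84-AS1 and ITGA5 had a score of 7.06 in LOVO and 15.7 in RKO, and its ovarian folds were 9.38, 10.6, 11.03 and 13.4 in the 4 control lists and 5.87 to 6.78 in the 4 knockdown lists. Here each knockdown list was below each control list. The median fold of lost regions with a peak had the same order, at 4.49 to 4.54 in the control and 3.76 to 4.13 in the knockdown lists. The order is thus not particular to this region. The region in EPHA2 (chr1:16142532-16143360) was scored 8.93 and 7.82, with folds of 5.35 to 6.37 in the control lists and 4.50 to 7.28 in the knockdown lists, which overlapped. The other 2 of the 6 strongest lay in TMEM181 and in MBNL1, a splicing regulator, where folds were 1.76 to 3.68 in control and 2.18 to 3.19 in knockdown lists.

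Only 3 lost regions (0.0752%) followed the same pattern in the ovarian lines, with a peak in all 4 control lists and in no knockdown list. Over all shared regions 50 (0.229%) did. The 3 regions were in MTMR1, a phosphoinositide phosphatase, in XYLB, xylulokinase, and in DLG1, a membrane scaffold. The MTMR1 region, 878 bp at chrX:150704887-150705764, had control scores of 9.59 in LOVO and 5.34 in RKO and ovarian control folds of 3.02, 3.32, 2.38 and 4.06. The XYLB region had scores of 5.86 and 4.98 with folds of 3.25 to 3.82, and the DLG1 region 3.98 and 4.85 with folds of 2.61 to 4.37. Every one of these folds lay below the median fold of lost regions in the same list.

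Some ovarian peaks at lost regions belonged to 1 line, about as often as over all shared regions. 438 lost regions (10.98%) had a peak in both OVCAR8 control lists and none in SKOV3 control, against 10.2% of all shared regions, and 543 (13.6%) had the reverse, against 12.7%. Of the 438, 283 (64.6%) had a peak in both lists labelled SKOV3 knockdown and 5 (1.14%) in both labelled OVCAR8 knockdown. Of the 543, 88 (16.2%) and 59 (10.9%) did. NOLC1, a nucleolar phosphoprotein, shows the first kind. Its 3 lost regions each had a peak in both OVCAR8 control lists and in both SKOV3-labelled knockdown lists, and none in the other 4. CD55, a complement inhibitor of the cell surface, had all 3 lost regions in OVCAR8 control, 0 in SKOV3 control, 0 in the OVCAR8-labelled knockdown and 2 in each SKOV3-labelled list. DIAPH2 shows the second kind, with 2 of its 5 lost regions in each SKOV3 control list and 0 in each of the other 6 ovarian lists. In SCLT1 all 8 lost regions had a peak in both SKOV3 control lists, and each OVCAR8 control list had a peak at 3 of them.

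Inside genes, the lost regions lay near either end less often than score-matched kept regions did. The share of regions in a protein-coding gene body was 90.4% for lost and 92.7% for score-matched kept regions, 3.86% and 2.88% lay in long non-coding RNA genes and 3.74% and 2.96% between genes. Where the strand of the gene could be read, 95.5% of lost regions were on it, and 95.0% of score-matched kept regions. Of 2674 lost regions on the strand of a single gene, 59 (2.21%) lay within 1 kb of its start, against 15.4%, and 73 (2.73%) within 1 kb of its end, against 10.6%. The lost share was lower on 21 of 23 chromosomes for starts and on 22 for ends. When gene bodies were cut into 10 equal parts the lost regions were spread evenly, with 8.12% to 12.6% in each, whereas score-matched kept regions had 19.0% in the first part and 21.7% in the last. Without the RKO knockdown list, which stood apart, the difference between lost and kept was -6.89 percentage points at starts instead of -13.2, and -2.45 at ends instead of -7.88. The median lost region lay 47.5 kb from the start and 39.6 kb from the end of its gene, against 21.5 kb and 14.8 kb. Without score matching, the median distance to the end was 13.7 kb for regions lost in LOVO only, 27.7 kb for RKO only and 13.8 kb for kept regions. Within 1 kb of a start lay 5.31% of regions lost in LOVO only, 6.53% in RKO only and 11.2% of kept regions. A low share at starts was thus not particular to lost regions, and in LOVO only the distance to the end was like that of kept regions.

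**Figure D3:**
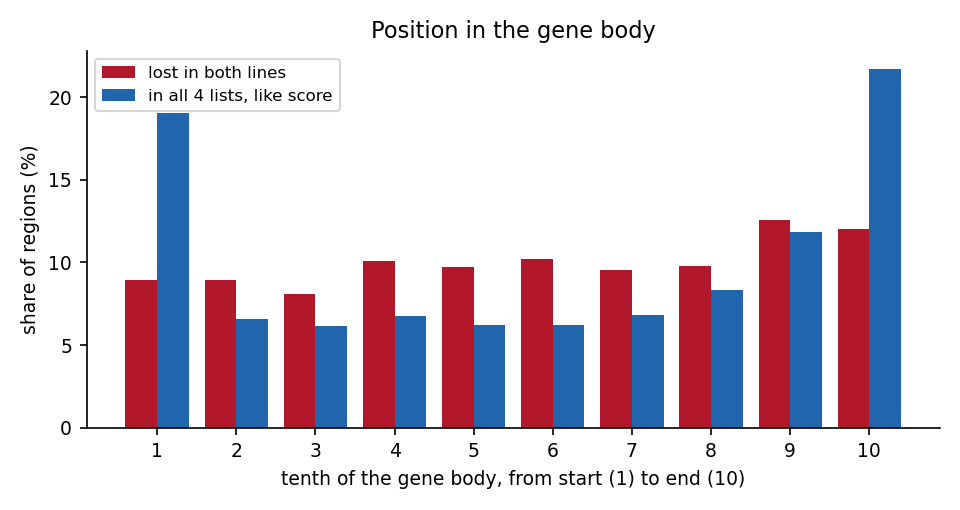
Share of regions (y axis, percent) in each of 10 equal parts of the gene body from start (1) to end (10) for lost and score-matched kept regions in a single gene of known strand. Lost regions take 8.12% to 12.6% in each part, and kept regions 19.0% in the first and 21.7% in the last.

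Their genes were long. The median length was 101 kb for genes with a lost region, counted once per region, and 47.6 kb for score-matched kept regions. A gene of at least 100 kb held 50.5% of lost and 29.5% of score-matched kept regions, and the lost share was the higher one on all 23 chromosomes. Without score matching, such a gene held 39.0% of regions lost in LOVO only, 39.7% in RKO only and 31.9% of kept regions. Longer genes leave more room far from an end, and when gene length was held alike with score, the gap at gene starts was -10.2 percentage points instead of -13.2 and that at gene ends -3.50 instead of -7.88. Lost regions were also narrow, with a median of 302 bp against 488 bp, and 19.1% of them were at least 500 bp wide against 48.6%. Without score matching, the median width was 401 bp in regions lost in LOVO only, 402 bp in RKO only and 657 bp in kept regions. Long genes and narrow width were thus shared in part by regions lost in 1 line. Width may enter the 1 bp rule, and the part of the rule in the narrow width was not tested. When presence asked for 50% of the region to be covered, 36.3% of lost and 42.4% of score-matched kept regions were at least 500 bp wide. The gap was then -6.11 points instead of -29.5, under a rule that width may enter in another way. A control peak on the opposite strand faced 2.26% of lost and 6.32% of score-matched kept regions. No lost region lay at a microRNA hairpin of the RefSeq table, against 19 of 9516 kept regions.

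Loss differed between chromosomes. It was lowest on chromosome 19, where 82 of 1149 shared regions (7.14%) were lost, followed by chromosome 21 (10.6%) and chromosome 22 (12.1%), and highest on chromosome 4, where 213 of 888 (24.0%) were. On the plus strand 18.9% of shared regions were lost and on the minus strand 17.5%. Genes named ZNF, many of which lie on chromosome 19, had 56 of 569 shared regions lost (9.84%) and 335 in all 4 lists. Their shared regions ranked higher by score than those of all genes, with a median rank of 59.4 against 48.3 points.

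The lost regions fell in 2271 of the 7163 genes with a shared region. Of these genes 1596 had 1 lost region, 411 had 2 and 264 had 3 or more, up to 10. Of the 3416 lost regions inside a single gene, 67.4% lay in a gene that had other peaks in both knockdown lists, 17.0% in one with other peaks in the LOVO list only, 5.27% in the RKO list only and 10.2% in neither. Score-matched kept regions gave 74.9%, 9.83%, 6.34% and 8.90%. The gene of most lost regions was therefore still represented by m6A peaks in both knockdown lists. The next shared region of the same gene was lost after 31.8% of lost regions, in 688 cases, and after 15.1% of kept regions. These 2 shares were not matched on score, and the part of like scores within a gene was not tested. Over genes with 1 shared region 15.7% were lost, and over genes with 10 or more 23.05%.

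EHBP1 and EXOC6B had most lost regions, 10 each. EHBP1, which links endocytic membrane traffic to actin, lost 10 of its 19 shared regions over a gene of 373 kb and kept 6. Its peak number was 23 in LOVO control and 11 in LOVO knockdown, and 27 in RKO control and 11 in RKO knockdown. Its lost regions had LOVO scores of 3.34 to 8.63 with a median of 4.92, and its kept regions a median of 7.36. EXOC6B, a subunit of the exocyst that tethers secretory vesicles, lost 10 of 21 shared regions and kept 3, and its peak number was 23 and 9 in LOVO and 30 and 6 in RKO. All 10 of its lost regions had a peak in at least 1 ovarian list and 3 had one in all 8. There the lost regions had a higher median LOVO score (7.18) than the 3 kept ones (5.33).

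SPIDR, a scaffold in homologous recombination, had the most shared regions of these genes, 29, of which 9 were lost and 14 kept. ERC1, a scaffold of vesicle docking sites, lost 8 of 18, and RABGAP1L, a GTPase-activating protein for Rab proteins, 8 of 14. SCLT1, a part of the distal appendages of centrioles, lost 8 of 14 and kept 0. SCLT1 had 22 peaks in RKO control and 0 in RKO knockdown, whereas it had 19 in LOVO control and 10 in LOVO knockdown. In SCLT1 the 6 other shared regions were lost in RKO only. SLC38A4-AS1, an antisense long non-coding RNA gene, lost 8 of 23 regions, and differed from the others in that 7 more were lost in LOVO only. DIS3L2, an exonuclease for uridylated RNA, lost 7 of 20, with 9 more lost in RKO only.

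DLEU1, a long non-coding RNA gene, lost 7 of 11 shared regions and had 0 peaks in all 8 ovarian lists. DLEU1 had 14 peaks in LOVO control and 7 in LOVO knockdown, and 18 and 0 in RKO. PRRC2C, a proline-rich protein of stress granules, lost 7 of the 10 regions within its gene body, of which 4 were on its strand and 3 on the opposite strand. RAB3GAP1, the catalytic subunit of the Rab3 GTPase-activating complex, lost 7 of 9, all on its strand. RAB3GAP1 held 10 peaks in LOVO control and 2 in LOVO knockdown, and 12 and 1 in RKO, so its number was low in both knockdown lists.

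Among the 637 genes with at least 6 shared regions, ITSN2, a scaffold of endocytosis, had the highest lost share with 6 of 7, and its peak number was 8 and 2 in LOVO and 12 and 1 in RKO. BDP1 (a subunit of the RNA polymerase III factor TFIIIB), DIAPH2 (a formin), JAZF1 (a zinc finger protein), SHANK2 (a postsynaptic scaffold), SLC10A7 (a transporter family member) and SRRM1 (a splicing coactivator) each lost 5 of 6. In BDP1 the RKO knockdown list had 4 peaks elsewhere in the gene, while it had 0 in DIAPH2. In 149 of the 637 genes no region was lost. Of genes with at least 3 shared regions, 16 lost all of them. GRIP1, a scaffold of glutamate receptors, and MITA1, a long non-coding RNA gene, lost all 5, and ELOVL7, a fatty acid elongase, all 4. MITA1 held 7 peaks in LOVO control, 8 in RKO control and 0 in each of the other 10 lists, with scores of up to 14.04 in LOVO. In GRIP1 the LOVO knockdown list held 5 peaks at other places, so the gene was not empty. The others, with 3 each, were ABTB3, ARFIP1, CD55, EEIG2, LTBP1, MRPL1, NASP, NOLC1, PHC1, PLAG1, SLC30A9, SLC49A4 and TMEM63C. CD55, MRPL1, PHC1, PLAG1 and TMEM63C had 0 peaks in both knockdown lists.

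**Figure D4:**
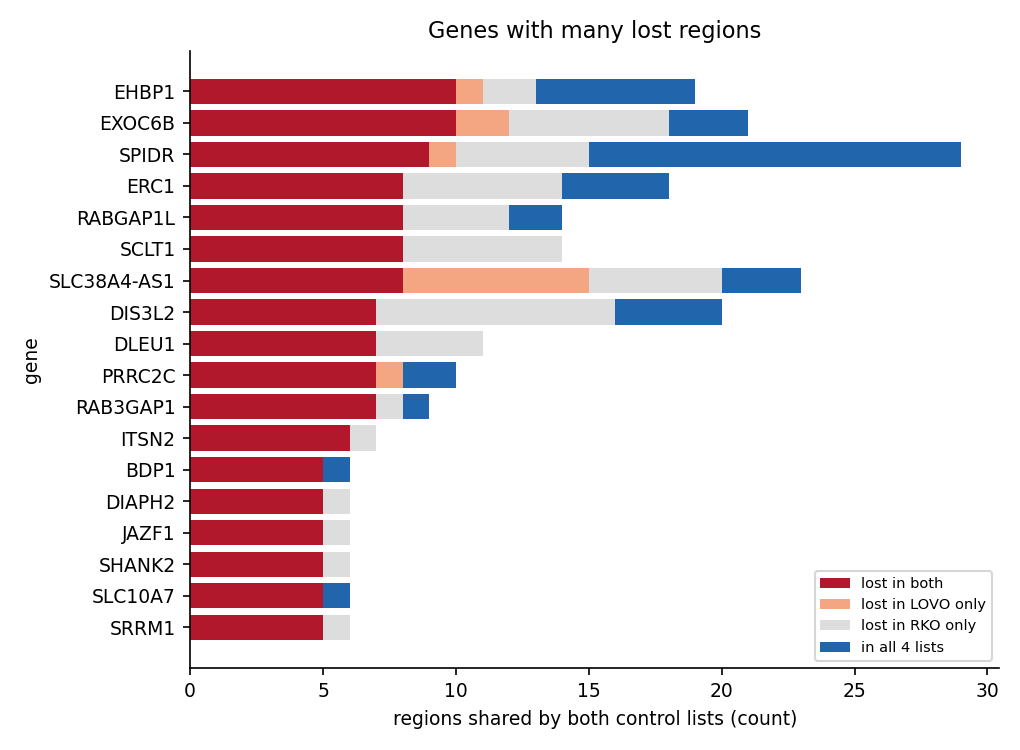
Number of regions of both control lists (x axis) in 18 genes with many lost regions or a high lost share (y axis), split by outcome in the knockdown lists. EHBP1 and EXOC6B have 10 lost regions each, and ITSN2 has 6 of 7.

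Over all genes 18.9% of the shared regions inside 1 gene were lost, and the gene lists were read against that share, without matching on score. In the list of m6A writer genes 6 of 31 shared regions were lost (19.4%). The shared regions of that list ranked higher by score than those of all genes, with a median rank of 78.2 against 48.3 points. ZC3H13, which holds the METTL3 complex in the nucleus, lost 3 of 13, with LOVO scores of 4.48 to 8.69 against a median of 14.5 in its 3 kept regions. In ZC3H13 1 of the 3 lost regions was on the strand opposite to the gene. METTL14, METTL16 and VIRMA lost 1 each. Among readers and erasers 6 of 30 were lost, with 2 of 5 in FTO, an m6A demethylase, and 2 of 8 in YTHDC1, the nuclear reader. Genes that silence LINE-1, such as those of the HUSH complex, lost 6 of 51 (11.8%), among them 1 each in ATF7IP, MORC2, MPHOSPH8, SAFB and SETDB1.

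Genes of DNA break repair lost 25 of 121 (20.7%) in 17 genes. RAD50, a subunit of the MRN complex that senses breaks, lost 4 of 6 regions, with scores of 5.08 to 7.80 in LOVO and 5.50 to 8.56 in RKO and no peak at them in any ovarian list. TP53BP1, which recruits repair factors to broken ends, lost 3 of 9 and kept 5. ATR, a checkpoint kinase, FANCM, a helicase of the Fanconi pathway, and XRCC5, the Ku80 subunit, lost 2 each. In the Wnt list 12 of 93 (12.9%) were lost, of which 4 of 5 in the receptor gene FZD6, 3 of 8 in CSNK1D, a casein kinase, and 2 of 5 in GSK3B, a kinase that marks beta-catenin for decay. Both lists had most of their shared regions outside the lost set.

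Histone and chromatin modifiers lost 45 of 315 (14.3%) and had 157 in all 4 lists. KAT6A, a histone acetyltransferase, lost 6 of 11 and kept the other 5, and the median LOVO score was 5.003 in the lost and 11.1 in the kept regions. Among CHD remodellers, CHD2 lost 4 of 13, CHD7 3 of 14 and CHD8 3 of 7, and CHD1, CHD6 and CHD9 2 each. ARID2, KMT2A and SMARCA2 also lost 2 each. The receptor tyrosine kinases lost 9 of 53 (17.0%), with 3 of 8 in MET, the receptor of hepatocyte growth factor, all of them with an ovarian peak and 1 on the strand opposite to the gene. The intestinal list lost 4 of 17 (23.5%), 3 of them in HNF4G, a nuclear receptor of the gut epithelium, where 5 regions were shared and 0 kept.

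Of the immediate-early and MYC genes 5 of 38 regions (13.2%) were lost, 2 of 4 in ATF3, a stress-induced factor, 1 of them on the strand opposite to the gene. TGF-beta and SMAD genes lost 4 of 41 (9.76%) and p53 pathway genes 2 of 29 (6.90%). Fragile-site genes, most of them very long, lost 20 of 93 (21.5%), with 5 of 19 in GPHN, 4 of 16 in FHIT, 3 of 9 in EXOC4, 3 of 16 in IMMP2L and 2 of 8 in PARD3B. FHIT kept 1 region and had 11 lost in RKO only. With 50% coverage the list lost 44 of 93, when 27.4% of all shared regions were lost. Nuclear long non-coding RNAs lost 7 of 33 (21.2%), all in PVT1 (4 of 9) and LINC-PINT (3 of 7). Genes named LINC lost 18 of 95 (18.9%), antisense genes 29 of 158 (18.4%) and microRNA host genes 4 of 24 (16.7%), while ribosomal protein genes lost 0 of 6 and SNHG genes 0 of 2.

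**Figure D5:**
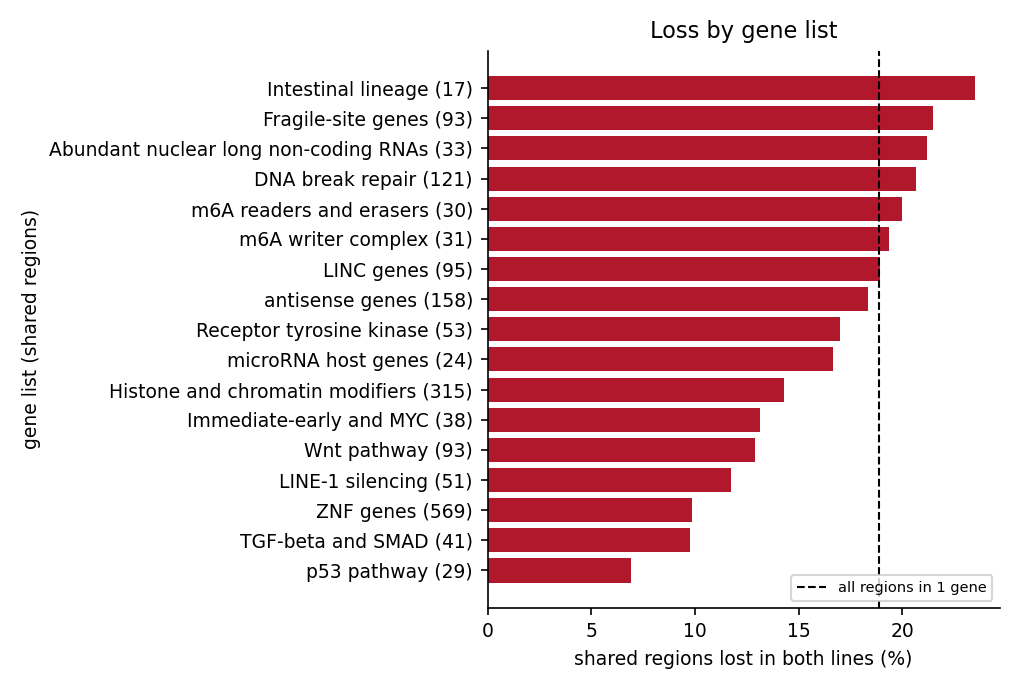
Percent of the regions of both control lists that were lost in both lines (x axis) for the gene lists with more than 6 shared regions (y axis, number of shared regions in brackets). The dashed line is the share over all regions in 1 gene, 18.9%, and the lists drawn run from 6.90% (p53 pathway) to 23.5% (intestinal lineage). Ribosomal protein and SNHG genes, with 6 and 2 shared regions and 0 lost, are not drawn.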

How the data were processed

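MeRIP-seq was done on chromatin-associated RNA in 32 libraries, 16 of them MeRIP libraries in 8 groups. Per the submitters' processing notes, which state no roles, the tools were MACS2 2.2.7.1, HISAT2 2.1.0, Bowtie2 2.4.2 and Trim Galore 0.6.6, and the build was hg38. Each ovarian MeRIP library has its own peak list, in which the authors deposited a fold enrichment (a linear ratio) and −log10 p and q values. In LOVO and RKO a list stands for a group, and the deposited score of each peak, never below 3, is explained by no header. Peak names there cite replicate 1, and what was done with replicate 2 is not stated there. Scores and folds are the authors' own and were used to describe and rank peaks within a list. Depth was estimated from the scores, since no read totals were at hand. Taking a score as a fold with 1 read added to both sides, the background is the lowest value for which the 25 commonest scores of a list and strand become whole reads, within 0.03 reads.

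Python 3.11.15 with numpy 2.4.6, pandas 2.3.3 and scipy 1.17.1 was used. Same-strand peaks sharing 1 bp were merged and presence was any same-strand overlap. Regions that touched 1 gene body of RefSeq's GRCh38.p14 gene table were assigned to that gene. Gene strands came from the RefSeq promoter table, for 27196 of 59094 genes. Exons, repeats and LINE-1 were not analysed here. Shares of regions have no test, since regions of 1 list are not replicates. Ovarian values were compared by a two-sided exact permutation test over lists, with Benjamini-Hochberg adjustment over 2 tests and a threshold of 0.05. The code was tested on simulated data.

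Genes and regions were named by rule: the 12 genes with most lost regions, the 8 with the highest lost share among genes with at least 6 shared regions, the 10 strongest lost regions, the 6 strongest with a peak in all 8 ovarian lists and the 6 strongest in none, those in all ovarian control and no knockdown lists, gene list members with 2 lost regions, and the 4 regions on each side of the rule. Genes that lost all of at least 3 shared regions, list members with 1 lost region, NOLC1 and CD55 as examples of ovarian patterns and the printed sequences were chosen after their values were seen. A few genes that meet these rules are not reported here. Members and lists were chosen with earlier results of these data known. Alternatives changed the overlap, the score threshold, the number of peaks, the strand, the score weighting, the members and the lists used.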

Additional observations from a re-analysis of the deposited data

How the results depend on the processing

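The number of lost regions was 5989 when 50% of a region had to be covered, 732 when control peaks had to be above the median score of their list, and 5997 without the RKO knockdown list. 4 other settings gave counts within 1.5 times of 3988. The ovarian gap to score-matched kept regions, -39.8 percentage points in the mean over lists, was negative in every setting tried. It was -30.4 with 50% coverage by ovarian peaks, -35.3 with equal numbers of peaks per list, -20.1 for all regions lost in LOVO, -34.4 for members under 50% coverage, -51.4 without weighting and -30.6 with width held alike. Its control minus knockdown difference (-1.93) changed sign to 3.55 with equal numbers of peaks and to 0.246 for regions lost in LOVO, and its lowest p was with width held alike (-2.93, exact p = 0.0286, adjusted p = 0.0571), the smallest that test allows. The control minus knockdown difference of the share itself was 1.19 to 15.2 points, the ends being the single lines. It was 2.23 points with equal numbers of peaks per ovarian list. No adjusted p of either difference passed the threshold. Single lines (smallest p 0.333), the replicate block and permutation within lines (smallest p 0.0556) could not pass it.

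Leaving out 1 ovarian list at a time gave 5.22 to 11.1 points for the share, -2.38 to -1.43 for the difference of gaps and -40.1 to -39.5 for the gap. With the replicate block, which permutes labels within line and replicate number, the differences were 8.19 (exact p = 0.125, the smallest possible) and -1.93 (exact p = 0.25). Permuted within lines alone they had exact p = 0.0556, the smallest possible, and 0.167. Same-numbered control and knockdown lists of a line as labelled did not deviate together, with correlations of -0.0153 to 0.00991 over regions. Since the line named on the knockdown lists is in doubt, this cannot show whether lists of the same number were handled together.

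Lost minus kept at gene starts (-13.2 points) was -9.02 without weighting, -7.10 against all other shared regions, -13.8 with 50% coverage, -15.3 with width held alike, -10.2 with gene length held alike and -6.89 without the RKO knockdown list. In the same order the value at gene ends (-7.88) was -6.66, -4.07, -5.85, -6.19, -3.50 and -2.45. For wide regions (-29.5) it was -46.7 without weighting, -19.5 against all other shared regions, -6.11 with 50% coverage and -17.2 without the RKO list. For genes of at least 100 kb (21.0) it was 18.6, 14.8 and 11.8 without weighting, against all other shared regions and without the RKO list. The share between genes changed sign to -0.0692 against all other shared regions, and the share made of several peaks (-6.02) to 1.03 with 50% coverage. With control peaks above the median score only, each gene named for its lost regions had 0 to 5 of them, the most in EXOC6B. With equal numbers of peaks per list GRIP1, SLC10A7, ELOVL7, EEIG2 and MRPL1 had 1, SRRM1 2, ITSN2, BDP1, DIAPH2 and JAZF1 3, ERC1, DIS3L2, DLEU1 and PRRC2C 4 and SPIDR 5. With 50% coverage SPIDR had 20, SLC38A4-AS1 15 and DIS3L2 12, the fragile-site list 44, the chromatin list 69, the Wnt list 21, the receptor list 14, readers and erasers 10 and immediate-early genes 9. The gene had other peaks for 81.5% of lost regions in the LOVO list alone. The causes of these shifts were not tested. Matching on width or gene length, and the features without the RKO list, were chosen after seeing the data.

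With 1 list per colorectal group, differences between these lists have no replicate error. Weak peaks lie near the threshold of a list, so absence from a list means that no peak was called, not that the mark was absent.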
